A study of Rattus norvegicus with 15 samples.

Results

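Chemokines and their receptors were followed in 15 samples of small intestine from male rats. A gene was taken as a member if its name in the array files begins with Ccl, Cxcl, Cx3cl, Ccr, Cxcr or Cx3cr followed by a number, and where 2 probes carried the name, the brighter over all arrays was used. The rule found 50 genes, 31 ligands and 19 receptors, among 17334 named genes on the array. Of these, 41 members (28 ligands and 13 receptors) were tested, because in 1 group or more the scanner software marked their probe as well above background on all 5 arrays, as it did for 13020 genes in all. 5 samples came from Wistar rats, nondiabetic and without operation, from the stock that gave rise to the Goto-Kakizaki (GK) strain, a nonobese strain with inherited type 2 diabetes. 5 samples were GK-Sham-PF, from GK rats sham-operated by an incision 16 cm from the ligament of Treitz that was closed again by side-to-side anastomosis, and pair-fed. 5 samples were GK-S-30, from GK rats with Roux-en-Y gastric bypass (RYGB) and a Roux limb (RL), the piece of intestine joined to the stomach pouch, of 30 cm. GK rats were 16 wk old at surgery, and tissue was taken 14 wk postoperation. The RL near its junction with the stomach was sampled after RYGB, and a matching segment of the intact intestine in the other groups. The ration of GK-Sham-PF rats was set to the lowest mean intake among the operated groups, while Wistar rats ate freely and had no operation, so strain, sham surgery and feeding cannot be told apart in GK-Sham-PF against Wistar. Levels are normalized log2 intensities of 1 probe, so that 1 unit is a doubling, and levels of different genes are not comparable.

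Chemokines are small secreted proteins that draw leukocytes along a gradient by binding receptors coupled to G proteins. In the gut, epithelium, stroma, endothelium and leukocytes themselves make them. Some are made steadily and place lymphocytes in the mucosa (CCL25 and CCL28 for cells of the small intestine and for antibody-secreting cells, CCL20 at the epithelium over lymphoid follicles, CCL19, CCL21 and CXCL13 inside lymphoid tissue). Others are switched on by cytokines and injury and call neutrophils (CXCL1, CXCL2), monocytes (CCL2, CCL7), eosinophils (the eotaxins CCL11, CCL24 and CCL26) or activated T cells (CXCL9, CXCL10 and CXCL11, induced by interferon, and CCL3, CCL4 and CCL5).

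The labelled tissue was borne out by its markers, since all 11 tested epithelial markers, the enterocyte genes Fabp1, Fabp2 and Lct among them, were well above background on every array. Of these, Cdx1 was called higher and Fabp2 lower in GK-S-30 than in Wistar rats. RNA of an intestinal segment with its mixed cells was measured, so fewer cells of a type and less RNA per cell cannot be told apart. Smooth muscle markers were higher in GK-S-30 rats (4 of 7 tested genes against GK-Sham-PF and 5 of 7 against Wistar), with a list mean of 10.67 to 11.40 on the Wistar arrays, 10.43 to 11.61 on the GK-Sham-PF arrays and 12.08 to 12.43 on the GK-S-30 arrays. Of 7 stroma markers, the 3 collagens Col1a1, Col1a2 and Col3a1 and the matrix protein Lum were higher in each of these comparisons, the other 3 had log2 fold changes below 0, and of those Pdgfrb was called lower against Wistar (-0.44). T cell markers were lower in GK-S-30 rats (5 of 9, Cd3d, Cd3e, Cd3g, Cd8b and Zap70, in each of these comparisons), with a list mean of 8.27 to 8.53 on the Wistar arrays, 7.91 to 8.81 on the GK-Sham-PF arrays and 7.69 to 8.20 on the GK-S-30 arrays. Single arrays stood apart. GK-Sham-PF replicate 1 was high in lymphoid genes, and replicate 3 of Wistar and replicate 5 of GK-Sham-PF gave dimmer signals before normalization (75th percentile of signal 225 and 224, against 329 to 384 on the other arrays). Slides were not balanced over the groups, since 1 slide held 2 arrays each of GK-S-30 and of GK-Sham-PF, 1 Wistar and 3 GK-Sham-PF arrays shared another, and no slide held both Wistar and GK-S-30 arrays. The list levels are shown by array in the plot of marker lists.

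**Figure D1:**
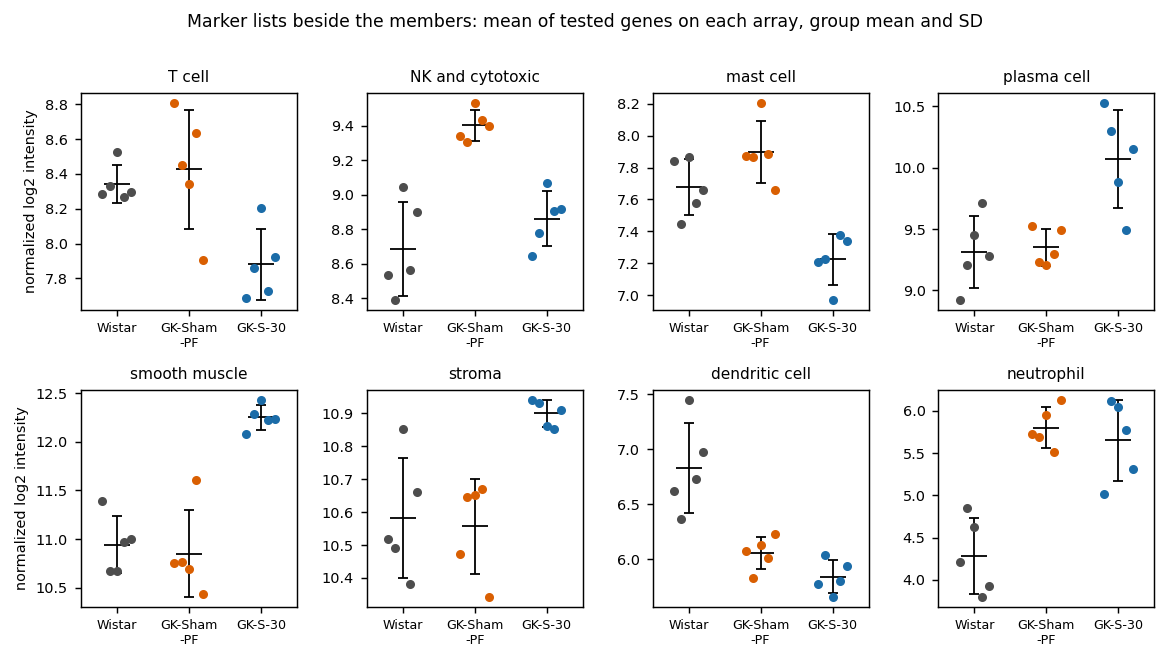
Each panel plots the mean normalized log2 intensity of the tested genes of 1 marker list on each array (points, replicates 1 to 5 from left to right) with the group mean and SD (bars). Smooth muscle and stroma lists are highest in GK-S-30, where the smooth muscle list runs from 12.08 to 12.43, and the T cell and mast cell lists are lowest there, with T cell values from 7.69 to 8.20.

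In GK-S-30 versus GK-Sham-PF rats, the comparison that asks what differed in the RL, 10 of the 41 tested members passed an adjusted p of 0.05 in limma, 8 lower and 2 higher. Over all tested genes 4.49% were called lower and 5.16% higher. The 8 lower members were all ligands (Cxcl1, Cxcl10, Cxcl11, Ccl3, Ccl4, Ccl5, Ccl24 and Ccl26), and the higher ones were the ligand Ccl12 and the receptor Ccr10. The median log2 fold change of the 28 tested ligands was -0.41 and that of the 13 receptors -0.08, with 7 ligands and 4 receptors above 0, while the median of all tested genes was -0.03. In GK-S-30 against Wistar rats, 8 members were lower (Cxcl10, Ccl3, Ccl5, Ccl20, Ccl24, Ccl26, Ccl28 and Ccr3) and 4 higher (Ccl25, Cxcl12, Cxcr3 and Cxcr7), against 13.8% and 12.4% of all tested genes. In GK-Sham-PF against Wistar rats, 2 members were lower (Ccl28 and Ccr3) and 4 higher (Ccl4, Cxcl12, Cxcr3 and Cxcr7), against 4.63% and 4.2% of all tested genes. The 2 comparisons with GK-Sham-PF use the same 5 GK-Sham-PF arrays, so their members are given side by side without an overlap. All 10 calls of GK-S-30 versus GK-Sham-PF kept their sign between the 2 and 2 arrays of the slide that holds both groups, and all 6 of GK-Sham-PF against Wistar between the 3 and 1 arrays of theirs. These arrays also entered the calls, so a matching sign was likely beforehand and is no separate support. With slide as a fixed block, 3, 1 and 1 members passed in GK-S-30 versus GK-Sham-PF, GK-S-30 against Wistar and GK-Sham-PF against Wistar, and the calls over all genes fell to 2.19%, 1.82% and 1.37%. The members still called were Cxcl10, Ccl24 and Ccl26 in the first and Cxcr3 in the others.

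**Figure D2:**
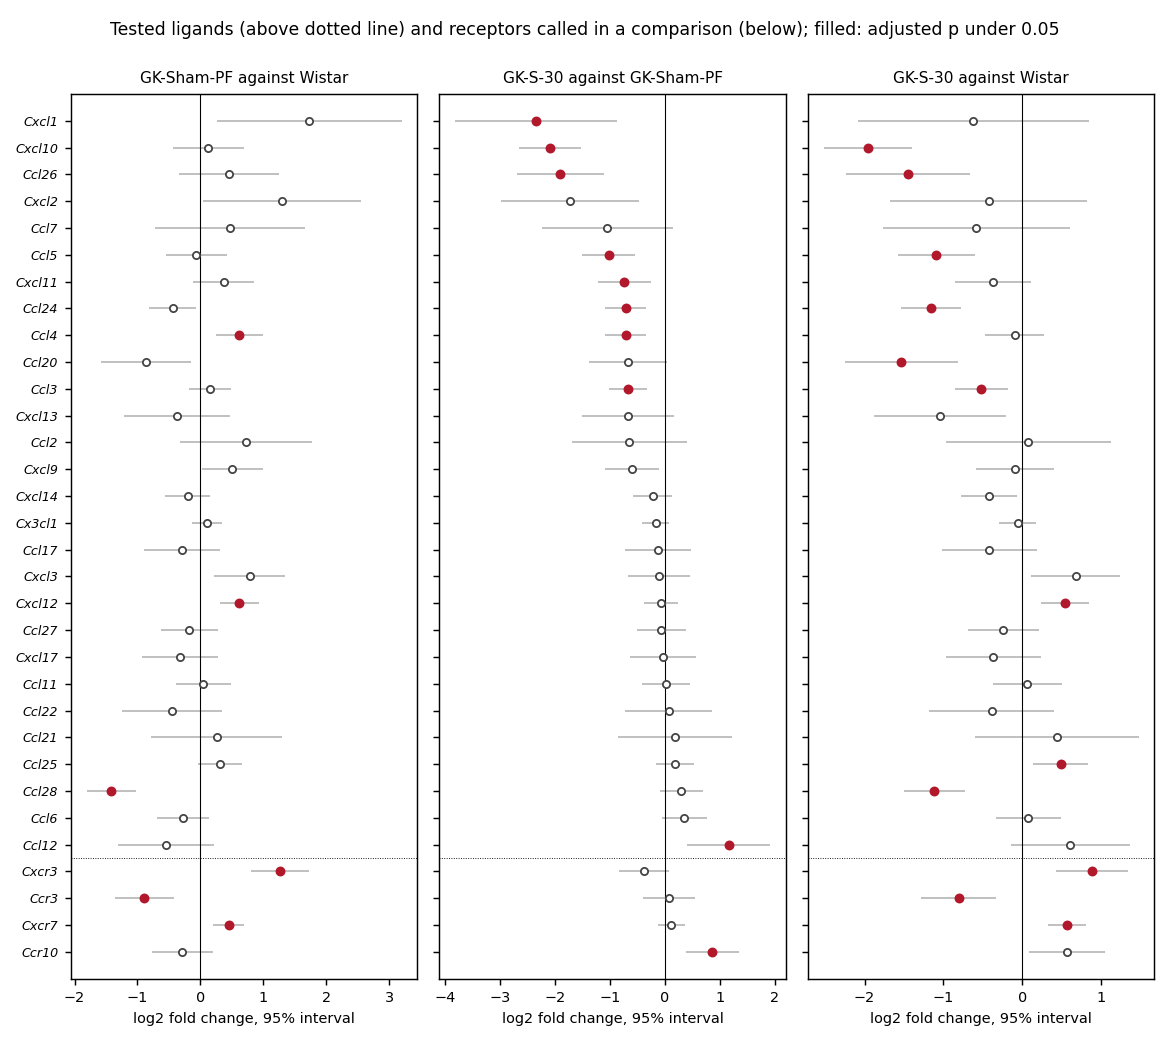
Log2 fold changes (points) and 95% intervals (lines) of the 28 tested ligands (above the dotted line) and the 4 receptors called in any comparison (below it) in the 3 comparisons, ordered by GK-S-30 versus GK-Sham-PF, with filled points for an adjusted p under 0.05. In the middle panel 8 ligands are filled to the left of 0, from Cxcl1 at -2.35 to Ccl3 at -0.67, and no receptor is.

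The 4 promoter stretches that follow are shown because Cxcl10, Cxcl11 and Cxcl1 were called lower in GK-S-30 rats and Cxcl2 went the same way without passing. They are RefSeq sequences (assembly GRCr8), end at the last base before the annotated start of the gene, and have in capitals the matches, on either strand, to a form of the NF-kB site (GGG, 3 bases of any kind, TTCC) and to a form of the interferon-stimulated response element (GAAA, 2 bases of any kind, GAAA). Matches of the former on opposite strands can overlap.
Cxcl10, chr14:15988816-15989065, plus strand: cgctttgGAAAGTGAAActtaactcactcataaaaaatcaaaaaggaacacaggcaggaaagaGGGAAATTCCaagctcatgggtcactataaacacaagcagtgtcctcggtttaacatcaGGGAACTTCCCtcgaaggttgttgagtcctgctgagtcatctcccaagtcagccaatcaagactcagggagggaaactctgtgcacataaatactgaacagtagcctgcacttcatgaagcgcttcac
Cxcl11, chr14:15973608-15973727, plus strand: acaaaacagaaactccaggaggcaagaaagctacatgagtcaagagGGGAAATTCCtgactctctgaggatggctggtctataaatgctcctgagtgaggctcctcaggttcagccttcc
Cxcl1, chr14:17479322-17479441, minus strand: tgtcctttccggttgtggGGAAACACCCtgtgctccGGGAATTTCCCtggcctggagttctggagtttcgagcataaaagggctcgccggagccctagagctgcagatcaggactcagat
Cxcl2, chr14:17467256-17467375, minus strand: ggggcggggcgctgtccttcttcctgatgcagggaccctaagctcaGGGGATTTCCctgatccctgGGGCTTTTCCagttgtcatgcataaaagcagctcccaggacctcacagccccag
Windows from 250 bases before the start to 50 after it could be matched for 37 of the 50 members, and 10 of them held the NF-kB form (Ccl6, Ccl7, Ccl9, Ccl20, Ccr3, Cxcl1, Cxcl2, Cxcl5, Cxcl10 and Cxcl11), as did 5.37% of the 33469 windows of all genes. The interferon form was in the windows of 2 members, Cxcl10 and Ccl19, and in 3.92% of all windows. Counted from the start of Cxcl10, the interferon form begins at position -243 and the NF-kB form at -187, -128 and, on the other strand, -127. A match is a run of letters, not a measured site.

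Cxcl10 fell in GK-S-30 rats by more than any member but Cxcl1, and was the member with the smallest adjusted p in that comparison. CXCL9, CXCL10 and CXCL11 are the 3 ligands of CXCR3, the receptor of activated T helper 1, cytotoxic and natural killer cells. The Cxcl10 probe read 8.12, 9.04, 8.49, 8.0 and 8.0 in Wistar, 8.32, 8.45, 8.82, 7.97 and 8.73 in GK-Sham-PF, and 6.60, 5.77, 6.97, 6.64 and 5.87 on GK-S-30 arrays. All 5 GK-S-30 values lay below every value of the other groups, and Wistar and GK-Sham-PF values overlapped. The level was 4.25-fold lower than in GK-Sham-PF (log2 fold change -2.09 ± 0.26 SE, adjusted p = 0.000199) and 3.89-fold lower than in Wistar rats (log2 fold change -1.96 ± 0.26 SE, adjusted p = 5.9e-05), and no difference passed between GK-Sham-PF and Wistar (log2 fold change 0.13 ± 0.26 SE, adjusted p = 0.849). Within the shared slide the difference between GK-S-30 and the GK-Sham-PF group was -2.17, and it passed with slide as a block (adjusted p = 0.0257). With normexp background correction, whose offset narrows differences between dim signals, the log2 fold changes were -1.45 and -1.33 against GK-Sham-PF and Wistar, and both passed.

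Cxcl11 was read 8.65, 8.51, 8.89, 8.37 and 8.24 in Wistar, 8.63, 8.75, 8.81, 9.03 and 9.28 in GK-Sham-PF, and 7.35, 8.51, 8.65, 8.41 and 7.90 on GK-S-30 arrays. The GK-S-30 range reached from below all other arrays, at 7.35 on replicate 1, into the range of both other groups. It was lower on GK-S-30 than on GK-Sham-PF arrays (log2 fold change -0.74 ± 0.22 SE, adjusted p = 0.0459), and this call was lost in 11 of 15 fits that left out 1 array (Wistar replicates 1, 2, 4 and 5, any GK-Sham-PF replicate, GK-S-30 replicates 1 and 5; adjusted p = 0.0534 to 0.107). Cxcl9 had means of 4.40 ± 0.49 (Wistar), 4.91 ± 0.15 (GK-Sham-PF), 4.31 ± 0.43 (GK-S-30; SD, n = 5) and its individual arrays were 4.27, 3.94, 5.23, 4.22 and 4.37 in Wistar, 4.92, 4.88, 4.79, 5.17 and 4.80 in GK-Sham-PF, and 3.86, 4.20, 4.08, 4.97 and 4.45 on GK-S-30 arrays. Its difference between GK-S-30 and the GK-Sham-PF group missed the threshold (log2 fold change -0.60 ± 0.22 SE, adjusted p = 0.112). This difference passed in 3 of 28 alternatives, among them those without Wistar replicate 3 (adjusted p = 0.0374) or without GK-S-30 replicate 4 (adjusted p = 0.0345). Cxcl11, Cxcl10 and Cxcl9 lie next to each other in this order in GRCr8 with no other coding gene between.

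The receptor Cxcr3 was higher in both GK groups than in Wistar rats, while its ligand Cxcl10 was lower in GK-S-30 than in Wistar rats. Its probe, printed because the 2 GK groups stood clear of Wistar in it, lies on the minus strand of the X chromosome in rn4, the build of the array annotation.
Cxcr3 probe, chrX:89794887-89794946: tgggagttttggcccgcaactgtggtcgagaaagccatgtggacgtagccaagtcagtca
It read 5.29, 5.28, 4.82, 5.58 and 5.29 in Wistar, 6.74, 6.96, 6.91, 6.08 and 5.89 in GK-Sham-PF, and 5.80, 6.46, 6.31, 6.13 and 5.98 on GK-S-30 arrays. Every GK value lay above the highest Wistar value, 5.58. Cxcr3 was 2.4-fold higher in GK-Sham-PF (log2 fold change 1.26 ± 0.21 SE, adjusted p = 0.00105) and 1.85-fold higher in GK-S-30 than in Wistar rats (log2 fold change 0.89 ± 0.21 SE, adjusted p = 0.00638), and GK-S-30 did not differ from GK-Sham-PF past the threshold (log2 fold change -0.38 ± 0.21 SE, adjusted p = 0.299). Both calls passed in all 28 alternatives, but their size varied. With normexp background the log2 fold changes were 0.51 and 0.37, and the second was 1.73 when slide entered as a fixed block. Markers of natural killer and cytotoxic cells, which carry CXCR3, were higher in GK-Sham-PF than in Wistar rats for 3 of 5 tested genes (Gzma, Gzmb and Klrd1) and lower on GK-S-30 than on GK-Sham-PF arrays for 2 (Gzmb and Klrd1), with list means of 8.39 to 9.04 on the Wistar arrays, 9.31 to 9.53 on the GK-Sham-PF arrays and 8.64 to 9.07 on the GK-S-30 arrays. Their part in the Cxcr3 result was not tested.

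Of 9 tested genes from a list of the interferon gamma response, the pathway that induces these 3 ligands, 1 was called lower and 0 higher in GK-S-30 versus GK-Sham-PF rats, with a median log2 fold change of -0.14 and 3 of the 9 above 0. Against Wistar, 3 were called higher in GK-S-30, 2 in GK-Sham-PF, and 0 lower. Psmb8 and Psmb9, subunits of the immunoproteasome, were higher in GK-Sham-PF than in Wistar rats (log2 fold changes 0.57 and 0.89), and they and Socs1, an inhibitor of cytokine signalling, were higher in GK-S-30 than in Wistar rats. Ifng itself was not well above background on any array.

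Cxcl1, a ligand of CXCR2 that draws neutrophils, had the widest difference of all members between GK-S-30 and the GK-Sham-PF group and also one of the widest spreads. It read 7.0, 7.75, 7.39, 4.56 and 5.80 in Wistar, 6.90, 9.46, 7.99, 9.40 and 7.36 in GK-Sham-PF, and 6.19, 5.65, 7.33, 4.34 and 5.88 on GK-S-30 arrays. GK-S-30 replicate 3, at 7.33, lay inside the GK-Sham-PF range, and Wistar values spread over 3 units, with replicates 4 and 5 lowest. Cxcl1 was 5.08-fold lower on GK-S-30 than on GK-Sham-PF arrays (log2 fold change -2.35 ± 0.67 SE, adjusted p = 0.0399). The call was lost in 7 of 15 fits that left out 1 array, those without GK-Sham-PF replicates 2, 3 or 4 and without GK-S-30 replicates 1, 2, 4 or 5 (adjusted p = 0.0623 to 0.099). With normexp background the log2 fold change was -1.47, and it passed. GK-Sham-PF was above Wistar by 1.73 without passing (adjusted p = 0.146).

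Cxcl2, the neighbouring gene with the same receptor, read 6.68, 7.17, 7.67, 4.79 and 6.15 in Wistar, 6.75, 8.38, 7.70, 9.04 and 7.09 in GK-Sham-PF, and 5.78, 6.78, 7.39, 5.02 and 5.36 on GK-S-30 arrays. GK-Sham-PF replicates 2 and 4 were again the highest and Wistar replicate 4 the lowest. Its difference between GK-S-30 and the GK-Sham-PF group was -1.73 ± 0.58 SE (adjusted p = 0.0741). This difference passed in 3 of 28 alternatives, among them those without Wistar replicate 4 (adjusted p = 0.0467) or GK-S-30 replicate 3 (adjusted p = 0.0418). Cxcl3, a further ligand of this kind, had means of 5.18 ± 0.63 (Wistar), 5.96 ± 0.23 (GK-Sham-PF), 5.86 ± 0.38 (GK-S-30; SD, n = 5) and was not called. Its log2 fold changes in GK-Sham-PF and GK-S-30 against Wistar, 0.78 and 0.68 (adjusted p = 0.0789 and 0.0652), passed without the dim Wistar replicate 3 (adjusted p = 0.014 and 0.0121). In these 2 comparisons Cxcl3 passed in 3 and 2 of 28 alternatives. Its second probe was not above background on any array. Cxcl5, named Cxcl6 at present, was above background on 1 array, and the receptors Cxcr1 and Cxcr2 on 0 and 3 arrays, so the receptor side of this group was not measurable. Of 4 tested neutrophil markers, 2 (S100a8 and S100a9) were called higher in both GK groups than in Wistar rats. Their log2 fold changes in GK-Sham-PF were 3.78 and 2.03, and S100a8 was above background on 11 of 15 arrays. Against Wistar, 3 of the 4 had log2 fold changes above 0 in each GK group. The lowest value was -0.22 for GK-Sham-PF rats and -0.06 after RYGB. None of the 4 tested differed between GK-S-30 and the GK-Sham-PF group past the threshold. The defining genes Csf3r, Elane and Camp were each above background on 3 of 15 arrays. The part of these cells in the Cxcl1 result was not tested.

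**Figure D3:**
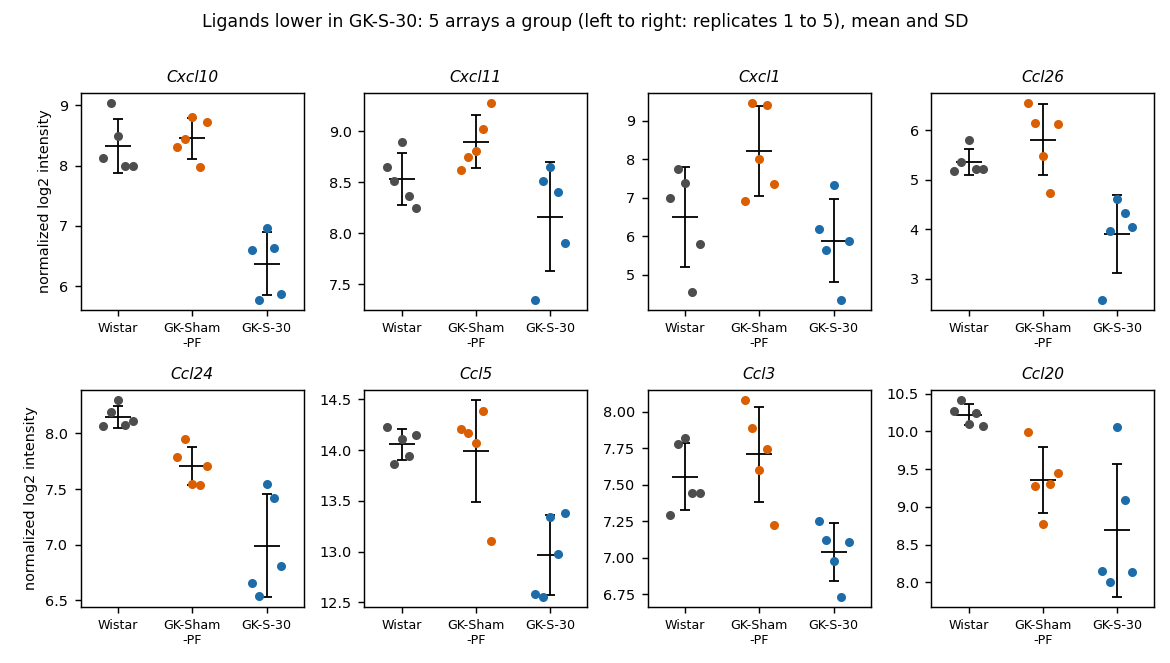
Normalized log2 intensity of 8 ligands that were lower in GK-S-30 rats in at least 1 comparison, with 1 point per array (replicates 1 to 5 from left to right) and the group mean and SD. Cxcl10 and Ccl26 show no overlap between GK-S-30 and either other group, while the Cxcl1 groups spread widely, from 4.34 to 9.46.

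Ccl2 and Ccl7 were not called in any comparison. Ccl2, which recruits monocytes through CCR2, read 9.33, 9.95, 9.80, 7.34 and 7.46 in Wistar, 9.03, 9.83, 9.23, 10.28 and 9.15 in GK-Sham-PF, and 9.13, 8.38, 9.55, 8.53 and 8.68 on GK-S-30 arrays. Wistar replicates 4 and 5 lay more than 1 unit below the other Wistar arrays. Ccl7, another CCR2 ligand, had the same 2 arrays lowest among Wistar, at 4.88 and 4.07. The log2 fold changes of Ccl2 and Ccl7 in GK-S-30 versus GK-Sham-PF were -0.65 (adjusted p = 0.458) and -1.05 (adjusted p = 0.262), and the second probe of Ccl7 gave -0.85.

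Ccl12, a further CCR2 ligand next to Ccl11 on the chromosome, was the only ligand called higher on GK-S-30 than on GK-Sham-PF arrays (2.23-fold, log2 fold change 1.16 ± 0.35 SE, adjusted p = 0.0472). It read 4.87, 5.89, 5.45, 4.10 and 4.25 in Wistar, 3.75, 3.68, 4.49, 5.31 and 4.58 in GK-Sham-PF, and 5.72, 5.60, 5.73, 5.18 and 5.39 on GK-S-30 arrays. GK-S-30 values were close together, GK-Sham-PF replicate 4 and Wistar replicate 3 lay among them, and Wistar replicate 2 above them. The probe was above background on 3 of 5 GK-Sham-PF arrays. With normexp background the log2 fold change was 0.31 (adjusted p = 0.0429). The call was lost at 75th percentile scaling (adjusted p = 0.0844) and in 10 of 15 fits that left out 1 array (Wistar replicate 1, GK-Sham-PF replicates 1, 2, 3 and 5, or any GK-S-30 replicate; adjusted p = 0.0524 to 0.118). Ccr2, the receptor, was near background (above it on 1 GK-S-30, 3 GK-Sham-PF and 5 Wistar arrays) and read 3.59, 3.68, 4.30, 3.77 and 4.0 in Wistar, 3.69, 3.62, 4.06, 3.54 and 2.87 in GK-Sham-PF, and 3.81, 3.67, 3.62, 3.35 and 3.21 on GK-S-30 arrays. Its largest difference, -0.34 between GK-S-30 and Wistar, did not pass (adjusted p = 0.224). Ccl6 was 11.04 ± 0.35 (Wistar), 10.77 ± 0.04 (GK-Sham-PF), 11.12 ± 0.42 (GK-S-30; SD, n = 5) and did not pass in any comparison, with the highest value, 11.86, on GK-S-30 replicate 2. Ccl9 was above background on 2 arrays, both GK-Sham-PF.

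**Figure D4:**
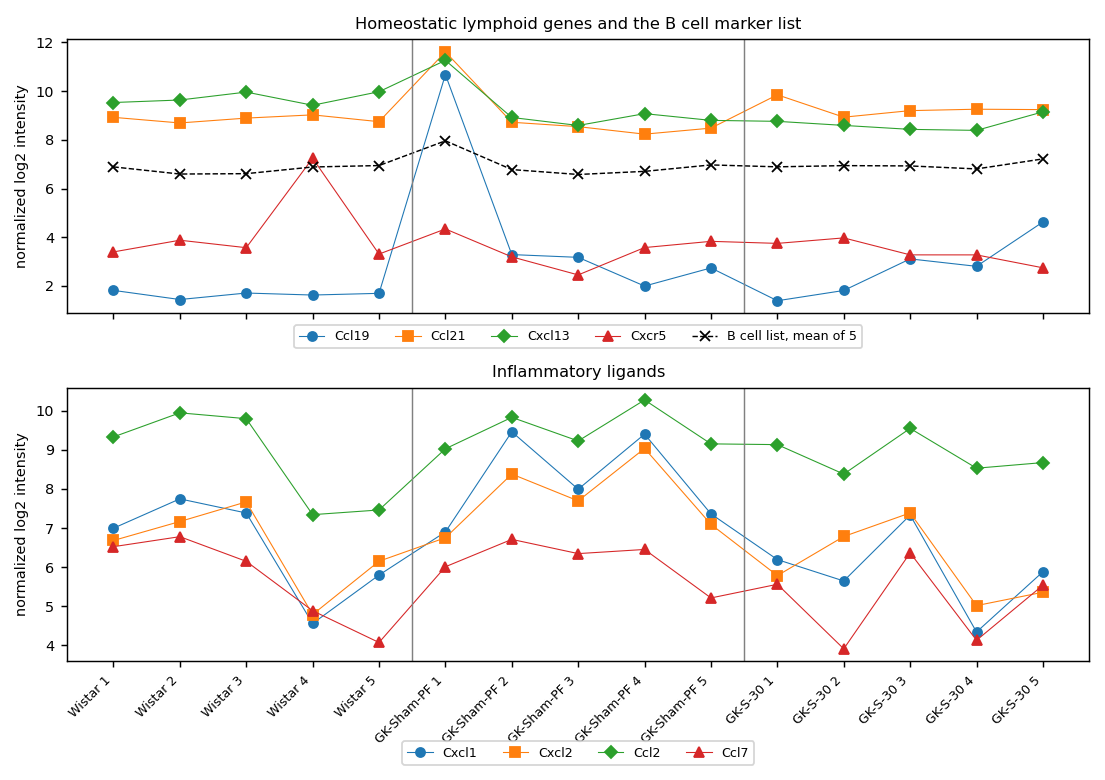
Normalized log2 intensity by array of lymphoid genes with the mean of 5 B cell markers (top) and of 4 inflammatory ligands (bottom); grey lines part the groups, lines join arrays only to guide the eye, and heights of different genes are not comparable. GK-Sham-PF replicate 1 is highest for Ccl19 (10.68), Ccl21 (11.61), Cxcl13 (11.26) and the B cell list (7.96), and Wistar replicates 4 and 5 are the lowest of their group for Ccl2 and Ccl7.

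CCL3, CCL4 and CCL5 are inflammatory ligands that T cells, natural killer cells and macrophages release, and all 3 were lower on GK-S-30 than on GK-Sham-PF arrays. The Ccl5 and Ccl24 probes are printed as examples of ligands that fell. The Ccl5 probe spans 2930 genome bases in rn4 on the minus strand, so it crosses an intron and reads spliced RNA. The Ccl24 probe lies in 1 stretch of the plus strand.
Ccl5 probe, chr10:71606089-71609018: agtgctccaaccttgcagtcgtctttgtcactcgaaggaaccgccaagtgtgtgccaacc
Ccl24 probe, chr12:22255655-22255714: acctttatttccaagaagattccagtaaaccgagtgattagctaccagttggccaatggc
Ccl5 read 14.23, 13.86, 14.11, 13.94 and 14.15 in Wistar, 14.21, 14.17, 14.07, 14.39 and 13.11 in GK-Sham-PF, and 12.59, 12.55, 13.35, 12.97 and 13.38 on GK-S-30 arrays. GK-S-30 lay below every Wistar array and below all GK-Sham-PF arrays except replicate 5, at 13.11, a dimmer array. Ccl5 was 2.03-fold lower than in GK-Sham-PF (log2 fold change -1.02 ± 0.22 SE, adjusted p = 0.0103) and 2.13-fold lower than in Wistar rats (log2 fold change -1.09 ± 0.22 SE, adjusted p = 0.00227). T cells are a known source of CCL5. The T cell list had median differences of -0.52 and -0.49 in the same comparisons and contained 5 called genes of 9 in each, and GK-Sham-PF replicate 5 had the lowest T cell level of its group too (7.91 to 8.81 in the group). The part of these cells in the Ccl5 result was not tested.

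Ccl3 read 7.30, 7.78, 7.82, 7.44 and 7.44 in Wistar, 8.08, 7.89, 7.60, 7.74 and 7.23 in GK-Sham-PF, and 7.26, 7.12, 6.98, 6.73 and 7.11 on GK-S-30 arrays. GK-S-30 values were below the Wistar ones and overlapped the GK-Sham-PF ones at replicate 5. It was 1.59-fold lower than in GK-Sham-PF (log2 fold change -0.67 ± 0.16 SE, adjusted p = 0.0149) and 1.43-fold lower than in Wistar rats (log2 fold change -0.52 ± 0.16 SE, adjusted p = 0.0237). The latter was lost without Wistar replicate 2 or 3 or GK-S-30 replicate 4 (adjusted p = 0.0545 to 0.0599), and with slide as a fixed block it turned to 0.27 (adjusted p = 0.756). Within the shared slide the difference between GK-S-30 and the GK-Sham-PF group was -0.30, less than that over all arrays.

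Ccl4 read 6.32, 6.31, 6.02, 6.18 and 6.07 in Wistar, 6.88, 7.07, 6.74, 7.16 and 6.15 in GK-Sham-PF, and 5.65, 6.28, 6.27, 6.14 and 6.09 on GK-S-30 arrays. It was high in GK-Sham-PF, except replicate 5, and level in the other groups. It was 1.54-fold higher in GK-Sham-PF than in Wistar (log2 fold change 0.62 ± 0.17 SE, adjusted p = 0.0355) and 1.64-fold lower on GK-S-30 than on GK-Sham-PF arrays (log2 fold change -0.71 ± 0.17 SE, adjusted p = 0.0176), with GK-S-30 and Wistar -0.09 apart (adjusted p = 0.729). The rise in GK-Sham-PF was lost in 8 of 15 fits that left out 1 array (Wistar replicates 2 to 5 or GK-Sham-PF replicates 1 to 4; adjusted p = 0.0503 to 0.0961). Ccr1, a receptor of CCL3 and CCL5, was not called. It read 5.02, 4.55, 4.61, 4.49 and 4.87 in Wistar, 4.83, 5.09, 4.68, 4.50 and 3.80 in GK-Sham-PF, and 4.59, 4.20, 4.72, 4.54 and 4.48 on GK-S-30 arrays, with no difference past the threshold (smallest adjusted p = 0.478).

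The eotaxins CCL24 and CCL26, which with CCL11 call eosinophils through CCR3, were lower in GK-S-30 rats, and CCL11 was not called. Ccl26 read 5.16, 5.35, 5.81, 5.22 and 5.21 in Wistar, 6.55, 6.14, 5.49, 4.72 and 6.12 in GK-Sham-PF, and 2.57, 3.97, 4.60, 4.32 and 4.05 on GK-S-30 arrays. GK-S-30 values were below every array of the other groups, and 4 of the 5 were above background. Ccl26 was 3.74-fold lower than in GK-Sham-PF (log2 fold change -1.90 ± 0.36 SE, adjusted p = 0.00448) and 2.73-fold lower than in Wistar rats (log2 fold change -1.45 ± 0.36 SE, adjusted p = 0.00839). The size of this dim probe's difference depended on the background correction, since with normexp it was -0.63 and -0.41 on the log2 scale, though both still passed. GK-Sham-PF spread from 4.72 to 6.55 around the narrow Wistar group.

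Ccl24 read 8.07, 8.19, 8.30, 8.07 and 8.11 in Wistar, 7.78, 7.95, 7.55, 7.54 and 7.71 in GK-Sham-PF, and 6.65, 6.54, 7.55, 7.42 and 6.81 on GK-S-30 arrays. The groups fell in the order Wistar, GK-Sham-PF, GK-S-30, GK-S-30 lay below all Wistar values, and it met the GK-Sham-PF range at replicate 3. It was 1.64-fold lower on GK-S-30 than on GK-Sham-PF arrays (log2 fold change -0.71 ± 0.17 SE, adjusted p = 0.0185) and 2.23-fold lower than in Wistar rats (log2 fold change -1.16 ± 0.17 SE, adjusted p = 0.000198), while GK-Sham-PF and Wistar differed by -0.44 without passing (adjusted p = 0.149). Ccl24 and Ccl26 are neighbours with no coding gene between them. Both were called lower in both comparisons. Ccl11 read 8.70, 8.77, 9.01, 8.30 and 8.77 in Wistar, 8.90, 8.76, 8.55, 9.40 and 8.16 in GK-Sham-PF, and 8.93, 8.71, 8.90, 8.35 and 9.0 on GK-S-30 arrays and overlapped throughout, with the widest of its 3 differences at 0.07 (adjusted p = 0.841).

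The receptor Ccr3 was lower in both GK groups than in Wistar rats, and the GK groups did not differ past the threshold (log2 fold change 0.08 ± 0.22 SE, adjusted p = 0.864). Its probe is printed because every Wistar array stood above every GK array in it. The probe lies on the plus strand of chromosome 8 in rn4.
Ccr3 probe, chr8:128769167-128769226: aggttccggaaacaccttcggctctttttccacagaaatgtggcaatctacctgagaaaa
Ccr3 read 4.86, 4.87, 5.89, 5.04 and 5.40 in Wistar, 4.51, 4.27, 4.54, 4.23 and 4.05 in GK-Sham-PF, and 4.81, 3.85, 4.19, 4.33 and 4.84 on GK-S-30 arrays. Wistar ranged from 4.86 to 5.89 and both GK groups below it, the nearest at 4.84. It was 1.85-fold lower in GK-Sham-PF (log2 fold change -0.89 ± 0.22 SE, adjusted p = 0.0166) and 1.75-fold lower in GK-S-30 (log2 fold change -0.81 ± 0.22 SE, adjusted p = 0.0129) than in Wistar rats. With normexp background the log2 fold changes were -0.27 and -0.21 (adjusted p = 0.0317 and 0.0455). Of 5 eosinophil markers on the array, Epx, Prg3 and Il5ra were above background on 0 arrays and Siglec5 on 2. Prg2, the 1 tested, was lower in GK-S-30 than in Wistar rats (log2 fold change -0.60, adjusted p = 0.0393). Without the 2 dimmer arrays together, the GK-Sham-PF call was lost (adjusted p = 0.0622). Ccr1l1, a receptor-like gene between Ccr3 and Ccr2, had means of 4.34 ± 0.58 (Wistar), 4.74 ± 0.53 (GK-Sham-PF), 4.04 ± 0.69 (GK-S-30; SD, n = 5) and was not called.

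Ccl28, which epithelium makes and which draws antibody-secreting and some T cells through CCR10 and CCR3, was lower in both GK groups. It read 9.34, 9.65, 9.88, 9.60 and 9.48 in Wistar, 7.91, 7.77, 8.49, 7.98 and 8.72 in GK-Sham-PF, and 8.43, 8.74, 8.13, 8.67 and 8.41 on GK-S-30 arrays. Every Wistar value lay above every GK value. It was 2.67-fold lower in GK-Sham-PF (log2 fold change -1.42 ± 0.18 SE, adjusted p = 7.36e-05) and 2.17-fold lower in GK-S-30 (log2 fold change -1.12 ± 0.18 SE, adjusted p = 0.000332) than in Wistar rats, and the GK groups did not differ past the threshold (adjusted p = 0.33). Ccl27, its nearest relative, read 8.29, 8.24, 8.60, 7.51 and 8.02 in Wistar, 7.80, 7.64, 7.55, 8.34 and 8.46 in GK-Sham-PF, and 7.81, 8.14, 7.76, 7.98 and 7.78 on GK-S-30 arrays and was not called, the largest difference being -0.24 (adjusted p = 0.424).

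Their receptor Ccr10, which IgA plasma cells carry, was higher on GK-S-30 than on GK-Sham-PF arrays. It is the only receptor called in that comparison, so its probe is printed. It lies on the minus strand of chromosome 10 in rn4.
Ccr10 probe, chr10:90194582-90194641: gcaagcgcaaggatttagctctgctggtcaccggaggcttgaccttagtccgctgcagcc
Ccr10 read 7.82, 8.47, 8.27, 8.22 and 7.68 in Wistar, 7.71, 7.25, 8.01, 7.83 and 8.22 in GK-Sham-PF, and 8.92, 9.09, 8.71, 7.96 and 8.64 on GK-S-30 arrays. Replicate 4 of GK-S-30, at 7.96, lay inside the ranges of the other groups and the other 4 above them. It was 1.82-fold higher than in GK-Sham-PF (log2 fold change 0.86 ± 0.22 SE, adjusted p = 0.024), and against Wistar it was 0.57 higher without passing (adjusted p = 0.0698). The difference from Wistar passed in 1 of 28 alternatives, without GK-S-30 replicate 4 (adjusted p = 0.0135). The call against GK-Sham-PF was lost without GK-Sham-PF replicate 1 or 2 or GK-S-30 replicate 1 or 2 (adjusted p = 0.0536 to 0.0623). Plasma cell markers Mzb1, Pou2af1 and Tnfrsf17 were higher in the same comparison (log2 fold changes 0.60, 0.63 and 0.71), 3 of 5 tested, with list means of 8.92 to 9.72 on the Wistar arrays, 9.21 to 9.53 on the GK-Sham-PF arrays and 9.49 to 10.53 on the GK-S-30 arrays, and GK-S-30 replicate 4 was the lowest of its group there as well. Their part in Ccr10 was not tested.

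Ccl20, the ligand of CCR6 made by epithelium over follicles, fell in GK-S-30 against Wistar rats. It read 10.27, 10.42, 10.10, 10.24 and 10.07 in Wistar, 9.99, 9.28, 8.78, 9.30 and 9.45 in GK-Sham-PF, and 8.15, 8.0, 10.06, 9.09 and 8.14 on GK-S-30 arrays. Replicate 3 of GK-S-30, at 10.06, was just below the Wistar range of 10.07 to 10.42 and above the 4 others, and all GK-Sham-PF arrays were below Wistar. It was 2.89-fold lower in GK-S-30 than in Wistar rats (log2 fold change -1.53 ± 0.33 SE, adjusted p = 0.00314), and 1.59-fold lower than in GK-Sham-PF without passing (adjusted p = 0.233). Slide as a fixed block moved the difference from Wistar to -2.22, which did not pass (adjusted p = 0.17). Without GK-S-30 replicate 3 the difference from GK-Sham-PF passed (log2 fold change -1.01, adjusted p = 0.017), and so did GK-Sham-PF against Wistar (-0.86, adjusted p = 0.0257). These 2 differences passed in 1 and 2 of 28 alternatives. Ccr6 read 4.84, 4.80, 3.79, 5.15 and 5.31 in Wistar, 5.16, 4.37, 3.52, 3.71 and 2.31 in GK-Sham-PF, and 4.18, 3.21, 4.41, 3.98 and 4.53 on GK-S-30 arrays. It was dim and varied by over 1 unit within groups, and no difference passed (log2 fold change -0.72 ± 0.43 SE, adjusted p = 0.245 for GK-S-30 against Wistar).

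Ccl25, made by small intestinal epithelium for CCR9-bearing lymphocytes, was 1.4-fold higher in GK-S-30 than in Wistar rats (log2 fold change 0.49 ± 0.16 SE, adjusted p = 0.0346). It read 11.87, 12.19, 11.40, 11.90 and 11.94 in Wistar, 12.07, 12.41, 12.32, 12.30 and 11.75 in GK-Sham-PF, and 12.37, 12.13, 12.72, 12.17 and 12.34 on GK-S-30 arrays. GK-S-30 replicate 2 at 12.13 and Wistar replicate 2 at 12.19 made the groups overlap. The call was lost in 7 of 15 fits that left out 1 array (Wistar replicates 1, 3, 4 and 5, GK-S-30 replicates 1, 3 and 5; adjusted p = 0.0512 to 0.0879). Ccr9 read 6.55, 6.46, 5.82, 6.33 and 6.47 in Wistar, 6.56, 6.45, 6.11, 7.0 and 5.32 in GK-Sham-PF, and 6.26, 6.31, 6.63, 6.0 and 6.12 on GK-S-30 arrays. Its groups overlapped throughout, and the widest difference was -0.06 between GK-S-30 and Wistar (adjusted p = 0.882).

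**Figure D5:**
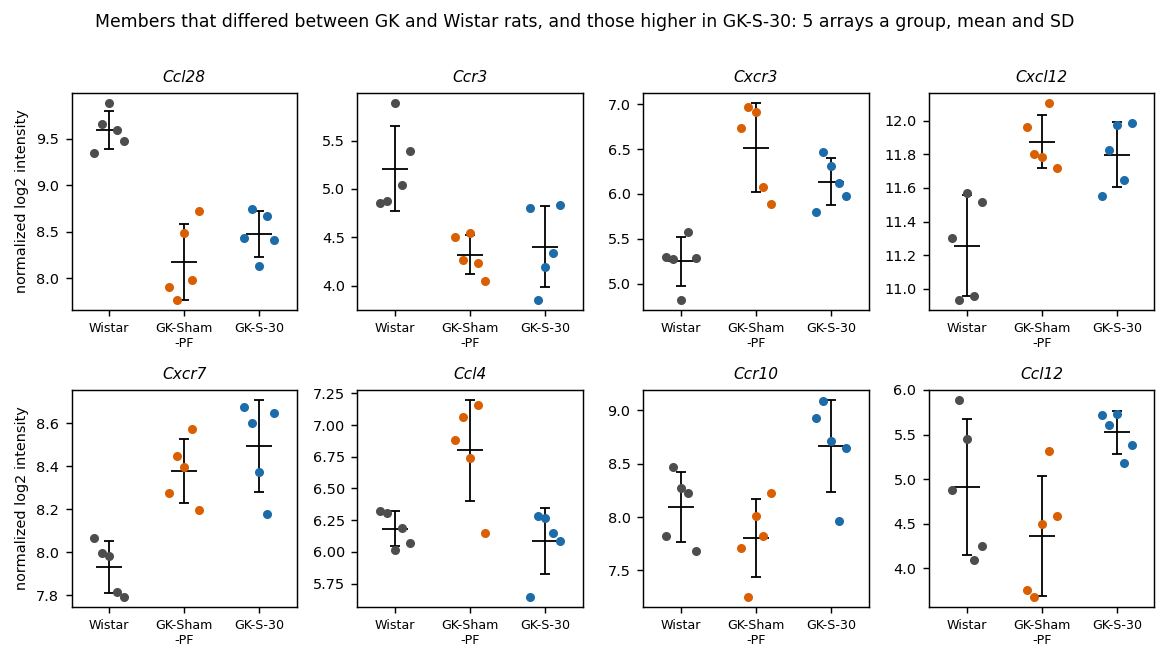
Normalized log2 intensity of 8 members, with 1 point per array (replicates 1 to 5 from left to right) and the group mean and SD. Ccl28 and Ccr3 are lower, and Cxcr3 and Cxcr7 higher, on every GK array than on every Wistar array, while Ccr10 and Ccl12 are highest in GK-S-30 with overlap.

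CXCL12, a homeostatic ligand of stroma that keeps leukocytes and progenitors in place through CXCR4, and its scavenging receptor CXCR7, named Ackr3 at present, were higher in both GK groups. The Cxcl12 probe read 11.30, 10.93, 11.57, 10.96 and 11.52 in Wistar, 11.96, 11.80, 11.78, 12.11 and 11.72 in GK-Sham-PF, and 11.55, 11.82, 11.98, 11.64 and 11.99 on GK-S-30 arrays. GK-Sham-PF lay above all Wistar arrays, and GK-S-30 replicate 1, at 11.55, was just under the highest Wistar value. The level was 1.53-fold higher in GK-Sham-PF (log2 fold change 0.62 ± 0.14 SE, adjusted p = 0.0108) and 1.46-fold higher in GK-S-30 (log2 fold change 0.54 ± 0.14 SE, adjusted p = 0.0107) than in Wistar rats. A second probe further along the transcript (chr4:153516205-153516264 in rn4, against chr4:153510217-153510276 for the first) was also above background on all arrays and gave 0.01 and 0.10 in these comparisons. With the mean of both probes, neither call passed (adjusted p = 0.115 and 0.0513).

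Cxcr7 read 8.07, 8.0, 7.98, 7.81 and 7.79 in Wistar, 8.28, 8.45, 8.40, 8.58 and 8.19 in GK-Sham-PF, and 8.68, 8.60, 8.38, 8.18 and 8.65 on GK-S-30 arrays. Every GK value was above every Wistar value. It was 1.36-fold higher in GK-Sham-PF (log2 fold change 0.45 ± 0.11 SE, adjusted p = 0.018) and 1.48-fold higher in GK-S-30 (log2 fold change 0.57 ± 0.11 SE, adjusted p = 0.00162). The former was lost without Wistar replicate 4 or 5 or GK-Sham-PF replicate 4 (adjusted p = 0.0518 to 0.0535). Cxcr4 read 7.57, 6.85, 7.12, 7.09 and 7.44 in Wistar, 8.20, 7.56, 7.28, 8.27 and 6.98 in GK-Sham-PF, and 7.07, 7.96, 7.32, 7.73 and 7.60 on GK-S-30 arrays. GK-Sham-PF replicates 1 and 4 were highest, and the differences to Wistar, 0.44 and 0.32, did not pass (adjusted p = 0.335 and 0.359).

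For the ligands of lymphoid tissue 1 array stood apart. CCL19 and CCL21 bring CCR7-bearing T and dendritic cells into lymphoid tissue, and CXCL13 brings CXCR5-bearing B cells into follicles. Ccl21 read 8.92, 8.69, 8.89, 9.03 and 8.75 in Wistar, 11.61, 8.72, 8.54, 8.23 and 8.48 in GK-Sham-PF, and 9.85, 8.93, 9.20, 9.26 and 9.24 on GK-S-30 arrays, and Cxcl13 read 9.53, 9.64, 9.96, 9.42 and 9.98 in Wistar, 11.26, 8.92, 8.59, 9.08 and 8.80 in GK-Sham-PF, and 8.76, 8.59, 8.43, 8.39 and 9.15 on GK-S-30 arrays. GK-Sham-PF replicate 1 was the highest array in both, at 11.61 and 11.26, with the next highest of all arrays at 9.85 and 9.98. Ccl19 was above background on 2 arrays, and was 10.68 on GK-Sham-PF replicate 1 against 1.39 to 4.63 on the other 14. The same array had the highest B cell list mean, 7.96 against 6.58 to 7.22 elsewhere, and the highest T cell list mean, 8.81.

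No lymphoid ligand was called in the model of all arrays without a block (log2 fold change -1.04 ± 0.38 SE, adjusted p = 0.0584 for Cxcl13 in GK-S-30 against Wistar). This Cxcl13 difference passed with slide as a random block (adjusted p = 0.0381) and with only the 2 groups compared (adjusted p = 0.0012). Without GK-Sham-PF replicate 1, Cxcl13 was lower in GK-S-30 (log2 fold change -1.04, adjusted p = 0.000339) and in GK-Sham-PF (-0.86, adjusted p = 0.00544) than in Wistar rats, and Ccl21 was higher on GK-S-30 than on GK-Sham-PF arrays (0.80, adjusted p = 0.00884) and than on Wistar arrays (0.44, adjusted p = 0.0454). Cxcl13 passed in 3 of 28 alternatives for GK-S-30 against Wistar and in 1 for GK-Sham-PF against Wistar. Ccl21 passed in 1 of 28 for each of its 2 comparisons. Of the receptors, Cxcr5 was above background on 8 of 15 arrays, with 1 high value, 7.24, on Wistar replicate 4. Ccr7 had means of 4.33 ± 0.42 (Wistar), 4.92 ± 0.29 (GK-Sham-PF), 4.66 ± 0.14 (GK-S-30; SD, n = 5) and was 0.59 higher in GK-Sham-PF than in Wistar rats without passing (adjusted p = 0.0585). This difference passed in 5 of 28 alternatives, among them those without Wistar replicate 3 (adjusted p = 0.0119) or GK-Sham-PF replicate 4 (adjusted p = 0.0474).

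The other members were not called. Ccl17, a product of dendritic cells and macrophages for CCR4, had means of 7.31 ± 0.44 (Wistar), 7.01 ± 0.24 (GK-Sham-PF), 6.89 ± 0.66 (GK-S-30; SD, n = 5). Ccl22, another CCR4 ligand, had means of 7.46 ± 0.66 (Wistar), 7.0 ± 0.55 (GK-Sham-PF), 7.07 ± 0.70 (GK-S-30; SD, n = 5). Both ranged over more than 1 unit within GK-S-30. Their receptor Ccr4 was above background on 1 array. The 2 tested dendritic cell markers, Flt3 and Batf3, were lower in both GK groups than in Wistar rats. In GK-Sham-PF against Wistar, Ccl17 and Ccl22 had log2 fold changes of -0.30 ± 0.28 SE and -0.45 ± 0.36 SE. In GK-S-30 against Wistar these were -0.42 ± 0.28 SE and -0.39 ± 0.36 SE, and none passed. Cx3cl1, the membrane-bound ligand fractalkine, was 12.91 ± 0.11 (Wistar), 13.03 ± 0.17 (GK-Sham-PF), 12.86 ± 0.20 (GK-S-30; SD, n = 5), with the smallest SE of the tested members, 0.11. Its log2 fold changes in GK-Sham-PF and GK-S-30 against Wistar were 0.11 and -0.06. A second, dimmer probe, above background on 15 arrays, gave 0.41 and 0.34 there and was not tested alone, so the 2 probes differ. The receptor Cx3cr1 was above background on 6 arrays and not tested.

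Cxcl14, a constitutive epithelial ligand, was 11.23 ± 0.25 (Wistar), 11.03 ± 0.30 (GK-Sham-PF), 10.81 ± 0.25 (GK-S-30; SD, n = 5), and its lower level in GK-S-30 than in Wistar rats missed the threshold (log2 fold change -0.42 ± 0.16 SE, adjusted p = 0.073). It passed in 2 of 28 alternatives, with normexp background (adjusted p = 0.0398) and without GK-Sham-PF replicate 5 (adjusted p = 0.0425). Cxcl17, a mucosal ligand, was 6.04 ± 0.75 (Wistar), 5.71 ± 0.23 (GK-Sham-PF), 5.67 ± 0.25 (GK-S-30; SD, n = 5), with 1 high array, Wistar replicate 3 at 7.38. Cxcr6, the receptor of resident T cells for CXCL16, was 7.23 ± 0.13 (Wistar), 7.20 ± 0.40 (GK-Sham-PF), 6.86 ± 0.23 (GK-S-30; SD, n = 5). It was not lower past the threshold on GK-S-30 than on GK-Sham-PF or Wistar arrays (adjusted p = 0.227 and 0.121). Each difference passed in 2 of 28 alternatives, 1 of them without GK-Sham-PF replicate 5 (adjusted p = 0.0274 and 0.0383). That array had the lowest T cell level among GK-Sham-PF, and the part of T cells in this was not tested. Ccr8 was above background on 3 arrays.

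Genes that act with the members were taken from a list. Of 7 tested chemoattractants and atypical receptors outside the rule, 1 was higher and 1 lower on GK-S-30 than on GK-Sham-PF arrays. Ackr4, a scavenger of CCL19, CCL21 and CCL25, was higher (log2 fold change 0.98 ± 0.19 SE, adjusted p = 0.00493, with means of 5.24, 5.04 and 6.02 in the order of Wistar, GK-Sham-PF, GK-S-30), and also against Wistar (0.78, adjusted p = 0.00676). Ccrl2, which holds chemerin at the cell surface, was lower (log2 fold change -0.56 ± 0.16 SE, adjusted p = 0.0345). Pf4, a platelet chemokine, was higher in GK-S-30 than in Wistar rats (log2 fold change 0.96 ± 0.18 SE, adjusted p = 0.0011). Xcl1 is a chemokine of cytotoxic lymphocytes for dendritic cells. It was higher in GK-Sham-PF than in Wistar rats (log2 fold change 1.29 ± 0.38 SE, adjusted p = 0.048). The Xcl1 probe was above background on 10 arrays and not on the others, which limits how well its fold change could be measured. Of 25 tested genes of receptor signalling, 3 were higher (among them Gnai3, a G protein subunit, and Grk6, a receptor kinase) and 1 lower (Arrb1, an arrestin that ends the signal) on GK-S-30 than on GK-Sham-PF arrays. Against Wistar, 5 were higher and 3 lower (Arrb1, Plcb3 and Src) in GK-S-30, and no gene of the list passed in GK-Sham-PF. Of 10 tested genes of the NF-kB response, Nfkbia, the inhibitor that the pathway itself induces, was higher in GK-Sham-PF than in Wistar rats (log2 fold change 0.60 ± 0.10 SE, adjusted p = 0.00132) and lower on GK-S-30 than on GK-Sham-PF arrays (log2 fold change -0.36 ± 0.10 SE, adjusted p = 0.0389). Birc3 and Sod2 were lower in both GK groups than in Wistar rats, and Il1b was lower in GK-S-30 than in Wistar rats (log2 fold change -0.93 ± 0.15 SE, adjusted p = 0.000398). Tnf was above background on 0 arrays.

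Other cell lists moved with the groups too, and their part in the member results was not tested. Mast cell markers Mcpt1 and Ms4a2 were lower on GK-S-30 than on GK-Sham-PF arrays (2 of 5 tested), and Ms4a2 also against Wistar, while Mcpt1 was higher in GK-Sham-PF than in Wistar rats. Of 9 macrophage and monocyte markers, 5 were lower and 1 higher in GK-S-30 than in Wistar rats, 2 lower and 1 higher in GK-Sham-PF than in Wistar rats, and none was called between the GK groups. Of 5 B cell markers, Cd79a and Cd79b were higher in both GK groups than in Wistar rats, and Cd22 was lower in GK-S-30 than in Wistar rats. Kdr, 1 of 6 endothelial markers, was lower in GK-S-30 than in Wistar rats. Of 4 pancreas markers, Ctrb1 was lower in GK-S-30 rats in both comparisons. Amy2a3 was higher in both GK groups than in Wistar rats, and Prss1 was higher in GK-S-30 than in Wistar rats. Prss1 was above background on 10 arrays and Amy2a3 on 14, so neither was on all. None of 3 tested stomach markers was called.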

How the data were processed

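RNA of 15 samples, 5 per group, was hybridized to Agilent whole rat genome arrays, 1 dye and 1 array per sample. The sources used here number the samples of a group without saying that each came from a separate rat, so p-values measure the spread between these samples. The authors deposited intensity values for each spot from the scanner software Feature Extraction, whose version the file headers give as 10.7.3.1, with background subtracted and spatial trends removed within each array but no normalization between arrays, and a matrix of log2 values that they had quantile-normalized in GeneSpring. Every member value of that matrix lay within 0.01 of the one computed here. After removal of control and outlier-flagged spots, repeated spots were averaged per probe, logged to base 2 and quantile-normalized, a step that takes the bulk of genes as unchanged. Probes (41012) were named through RefSeq tables (GRCr8), 17540 by accession, 3098 by symbol, 547 by synonym and 1317 by the file's own name, and 18510 unnamed probes were left out. 1 limma 3.58.1 model (R 4.3.3, data.table, version 1.17.8) over all 15 arrays gave 3 comparisons, with Benjamini-Hochberg adjustment over 13020 genes at 0.05. The median SE of a log2 fold change was 0.15, a precision limited by the array number. All arrays have 66.7% to 74.8% of probes well above background and no saturated spot. The procedure was tested on simulated data.

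Members, gene lists and motifs were chosen with earlier results of these data known, so list counts are descriptions. Members called in any comparison and their tested partners are named with all arrays, the others by means or detection, and some genes are not reported here. Alternatives were 75th percentile scaling, normexp background (offset 50), the deposited matrix, no filter or a filter on all arrays, the mean of a gene's probes, slide as a fixed or random block, the replicate block, the methods' Tukey comparison, only the 2 groups compared, leaving out each array, and, chosen after seeing the data, leaving out both dimmer arrays. Figures were drawn with matplotlib 3.10.9.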

Additional observations from a re-analysis of the deposited data

Results flagged for a closer look

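Among 140 groups of 5 arrays examined, 10 had an array far from its neighbours by Dixon's ratio, and chance flags about 1 in 20 groups. GK-Sham-PF replicate 1 stood high in 3 of them, with Ccl19 at 10.68, Ccl21 at 11.61 and Cxcl13 at 11.26. Wistar replicate 3 stood high in Ccl26 at 5.81, Ccl6 at 11.65 and Cxcl17 at 7.38. Single arrays stood apart in Ccl5 (GK-Sham-PF replicate 5, low at 13.11), Ccl6 (GK-S-30 replicate 2, high at 11.86), Cxcl5 (Wistar replicate 1, high at 4.53) and Cxcr5 (Wistar replicate 4, high at 7.24). Ccl19, Cxcl5 and Cxcr5 were not tested for detection reasons. The causes were not tested.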

How the results depend on the processing

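With all arrays, 6, 10 and 12 of 41 tested members were called in GK-Sham-PF against Wistar, GK-S-30 against GK-Sham-PF and GK-S-30 against Wistar. Of all tested genes, 8.83%, 9.65% and 26.2% were called, and the counts and shares below follow the same order. With slide as a fixed block the counts were 1, 3 and 1 (1.37%, 2.19% and 1.82% of all genes), and Ccl3 in GK-S-30 against Wistar turned to 0.27 (adjusted p = 0.756). No slide held Wistar and GK-S-30 together, so slide and group cannot be told apart there. With the replicate block the counts were 5, 6 and 11 (6.56%, 6.82% and 22% of all genes). The replicate numbers did not pair the arrays, since same-numbered arrays had correlations of deviations from -0.276 to 0.181 and 1 of 15 arrays correlated best with its own number. The methods' Tukey comparison after Benjamini-Hochberg adjustment gave 3, 2 and 8 members, against 5.45%, 3.87% and 17.5% of all genes. Unadjusted over genes it gave 8, 11 and 12, against 14.7%, 16.3% and 29.1% of all genes. Leaving out 1 array gave 4 to 8, 6 to 11 and 11 to 14, with 6.62% to 9.28%, 6.65% to 11.4% and 21.7% to 28.2% of all genes. Without both dimmer arrays, an alternative chosen after seeing the data, the counts were 8, 10 and 15 (9.92%, 12.5% and 29.9% of all genes). The remaining alternatives stayed within 1.5 times of the counts with all arrays. With normexp background every called difference among the members kept its direction and passed, but dim probes had smaller log2 fold changes, as for Ccl26 between the GK groups (-0.63). Probes near background, among them Ccl12, Ccl26, Ccr2 and Ccr3, limit what could be measured, and 9 members were not tested.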
